A study of Mus musculus with 26 samples.

Results

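The 9 genes of retinal bipolar cells described here were followed in sorted mouse cells: Grm6, Trpm1, Vsx1, Bhlhe23, Isl1, Scgn, Gabrr1, Car8 and Lrtm1. They were listed by name with earlier results of these data known, and all 9 of 9 were found among the 25146 complete gene lines of a table of 26310 lines. The 26 libraries of the study came from 13 sorted groups with 2 replicates each, in 4 lineages that use the transcriptional repressor BLIMP1 (gene Prdm1). The account rests on the 10 retinal libraries, sorted as photoreceptor precursors, and turns to the B lineage, the intestine and the germ cell-like cells where a member was detected there.

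The retinal groups were GFP+ cells at P0, GFP+ CD73- cells at P4, and cells gated on CD73 alone at P4, P6 and P10. CD73, the product of Nt5e, is a surface protein of rod precursors. The B lineage groups were B220+ splenic B cells of mice aged 8 to 10 weeks and 3 populations taken after culture for 3 days in IL-4 at 2 ng/mL together with LPS at 10 ng/mL: GFP- CD138- blasts, GFP+ CD138- pre-plasmablasts (prePB) and GFP+ CD138+ plasmablasts (PB). Intestinal epithelium was GFP+ EPCAM+ at E16.5 and GFP-negative EPCAM+ at P3 and P14, so that age and gate changed together. All of these mice were C57BL/6 and homozygous for EGFP joined to the N terminus of BLIMP1, so no group lacked the tag. The day 2 primordial germ cell-like cells (d2 PGCLC) were induced in culture from a C57BL/6 and 129 line with Blimp1-mVenus, stella-ECFP and Rosa26-rtTA. Whether the 2 replicates of a group came from different animals or cultures is not labelled, and a p-value here reflects no more than the spread of these samples, which may be technical. Libraries were 3' RNA-seq libraries made from 1 ng of RNA, and each level is given as RPM, reads scaled to the size of the library. The retinal libraries held about 2584100 to 5598000 reads, so that 1 read was worth 0.179 to 0.387 RPM there.

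Bipolar cells relay signals from photoreceptors to the inner retina and are among the last retinal cells to be born, from divisions that also give rods. ON bipolar cells sense glutamate with the metabotropic receptor mGluR6, encoded by Grm6. In darkness the receptor acts through a Go protein to keep the cation channel TRPM1 closed, and light reverses this. BLIMP1 is known in the mouse retina for holding OTX2-expressing precursors to the photoreceptor fate: without it, many of them become bipolar cells.

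Reference promoters, from 250 bases before to 50 bases after a listed start of the gene, were available for 8 of the 9 members (RefSeq, GRCm38.p6). No entry was matched for Car8, and Trpm1 had 2. The BLIMP1 motif AGNGAAAG was searched on both strands. It stood in the promoters of 2 members, Grm6 and Vsx1, and in 8.63% of all 32851 promoters of the same table. The Grm6 promoter (chr11:50850435-50850734, plus strand) and the Vsx1 promoter (chr2:150689088-150689387, minus strand) are printed for that reason, 5′ to 3′ on the strand of the gene. Capitals mark the motif, which reads as its reverse complement in Grm6. The first Trpm1 promoter (chr7:64153585-64153884, plus strand) is printed beside them because it holds instead the photoreceptor and bipolar homeodomain motif TAATCC of CRX and OTX2, again as its reverse complement and in capitals.
Grm6: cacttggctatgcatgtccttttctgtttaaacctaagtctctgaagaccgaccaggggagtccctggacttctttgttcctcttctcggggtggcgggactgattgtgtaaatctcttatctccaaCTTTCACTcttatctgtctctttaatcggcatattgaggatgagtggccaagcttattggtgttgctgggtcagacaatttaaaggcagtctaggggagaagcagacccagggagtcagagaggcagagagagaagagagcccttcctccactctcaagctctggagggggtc
Vsx1: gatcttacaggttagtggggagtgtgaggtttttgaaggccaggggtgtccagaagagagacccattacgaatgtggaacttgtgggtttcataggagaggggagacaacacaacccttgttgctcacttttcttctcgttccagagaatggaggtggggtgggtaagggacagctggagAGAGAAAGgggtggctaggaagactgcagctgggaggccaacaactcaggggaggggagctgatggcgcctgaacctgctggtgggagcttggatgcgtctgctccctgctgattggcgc
Trpm1: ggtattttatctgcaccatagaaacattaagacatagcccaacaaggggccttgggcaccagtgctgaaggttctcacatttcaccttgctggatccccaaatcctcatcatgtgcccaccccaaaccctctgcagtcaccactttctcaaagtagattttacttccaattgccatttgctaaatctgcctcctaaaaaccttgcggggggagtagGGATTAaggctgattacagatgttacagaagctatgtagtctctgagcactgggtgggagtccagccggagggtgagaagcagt

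The match began 123 bases before the start used for the Grm6 window and 70 bases before that used for Vsx1. The gene span of Grm6 begins at base 50850369, ahead of its printed window, so that whole window lies inside the span. TAATCC was found in 3 of the 8 members (Trpm1, Isl1 and Lrtm1) and in 7.06% of all promoters. The shorter core GAAAG, which AGNGAAAG contains, stood in 6 of the 8 and in 57.3% of all, the E-box CANNTG in 7 and in 72.3%, and the homeodomain core TAATTA in 0 and in 5.29%. A match is a match of letters in this window only, and binding was not measured in these data.

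Prdm1, the gene of the reporter, set the frame of the retinal series. It stood at 486 and 481 RPM at P0, 502 and 495 RPM in GFP+ CD73- cells at P4, 288 and 275 RPM in CD73+ cells at P4, 146 and 164 RPM at P6 and 86.0 and 80.4 RPM at P10. Its level was alike in both GFP-gated groups and stepwise lower in the 3 CD73-gated groups, with no overlap between P4, P6 and P10. The log2 fold change was -2.53 ± 0.12 at P10 against P0 (± standard error, limma on log2(RPM + 1), Benjamini-Hochberg adjusted p = 9.4e-11). Both age and gate differ between P0 and P10. A change was called, and is written below as rose or fell, at an adjusted p under 0.05 with a log2 fold change of at least 1 in size.

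**Figure D1:**
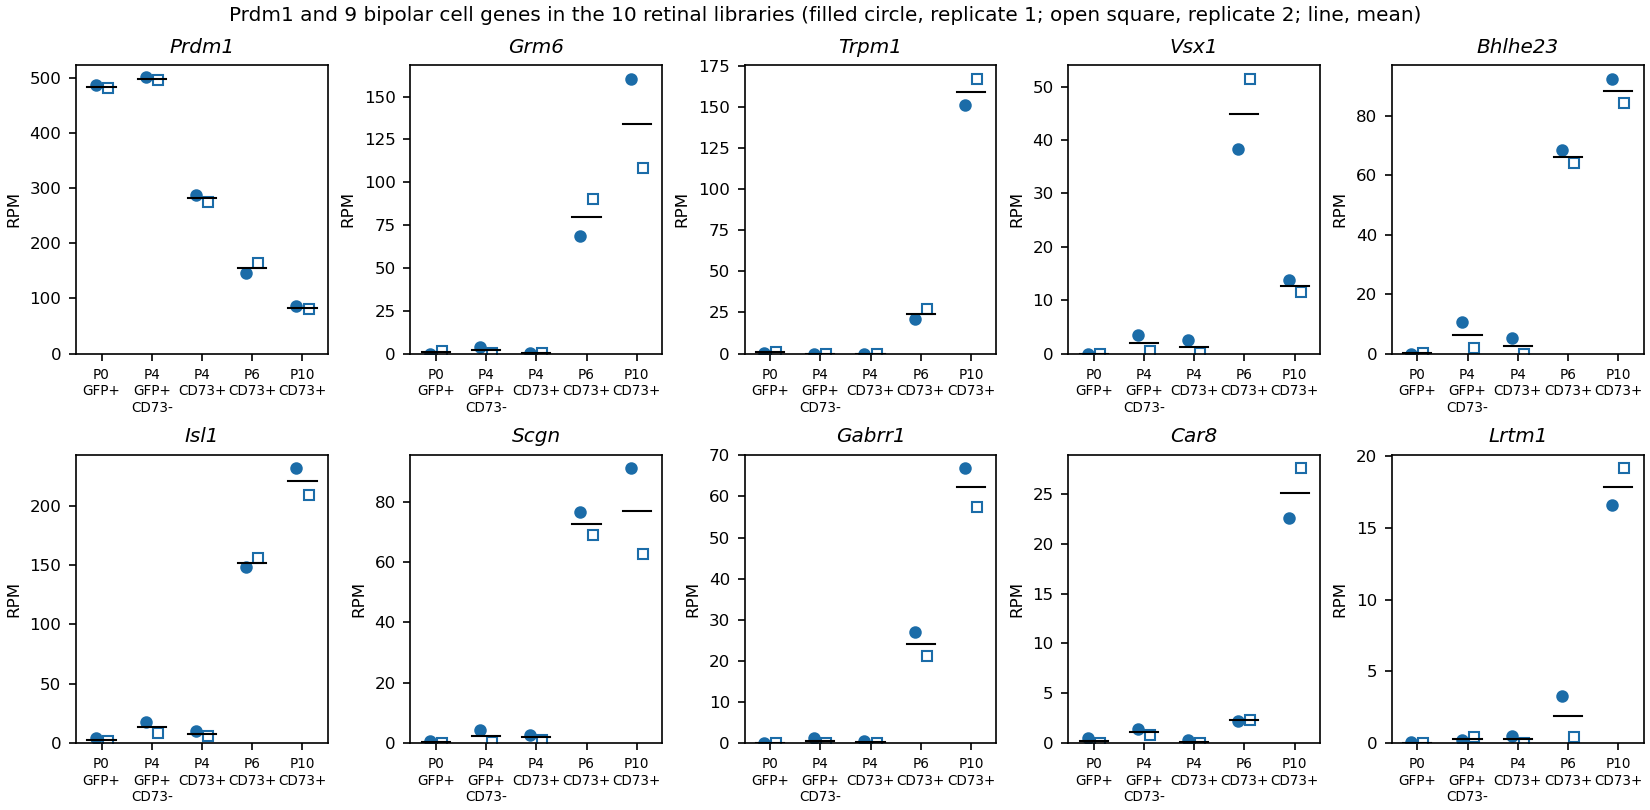
Level in RPM (vertical axis, each from 0) of Prdm1 and of the 9 bipolar members in the 5 retinal groups (horizontal axis); points are single libraries and lines are means of 2. Prdm1 steps down to 86.0 and 80.4 RPM at P10 while 7 members climb at P6, Car8 and Lrtm1 climb at P10, and Vsx1 is highest at P6.

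Both partners of the ON bipolar cascade stood at 3.93 RPM or less in the P0 and P4 libraries. Grm6, the glutamate receptor itself (chromosome 11, 50850369 to 50866208), stood at 0 and 1.4 RPM at P0, 3.93 and 0.375 RPM in GFP+ CD73- cells at P4, and 0.236 and 0.265 RPM in CD73+ cells at P4, where each value was worth 1 read. At P6 it stood at 68.8 and 90.2 RPM and at P10 at 160 and 108 RPM. The P6 and P10 libraries lay far above all 6 earlier ones and did not overlap each other. Grm6 rose in CD73+ cells at P6 against P4 (log2 fold change 6.00 ± 0.53, adjusted p = 1.1e-05). P10 against P6 gave 0.73 ± 0.53, with a 95% interval of -0.39 to 1.85, and was not called.

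Trpm1, the channel that the receptor controls (chromosome 7, 64153835 to 64269772), was listed at 0 in all 4 P4 libraries, after 0.226 and 1.16 RPM at P0. It then stood at 21.2 and 27.1 RPM at P6 and at 151 and 167 RPM at P10, with no overlap at either step. Trpm1 rose at P6 (adjusted p = 1.1e-05), with no fold given because its P4 libraries were at 0. It rose again at P10 against P6 (log2 fold change 2.68 ± 0.40, adjusted p = 2.0e-04). At P6 the mean of Grm6 was 59.3% of its P10 mean, and that of Trpm1 was 15.2%.

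The 3 transcription factors took different courses. Vsx1 (chromosome 2, 150680702 to 150689137), a homeodomain factor of some OFF cone bipolar cells, was listed at 0 in both P0 libraries. It stood at 3.39 and 0.422 RPM in GFP+ CD73- cells and at 2.59 and 0.0265 RPM in CD73+ cells at P4, then at 38.4 and 51.5 RPM at P6 and at 13.8 and 11.4 RPM at P10. Vsx1 was the one member whose P10 libraries lay below its P6 libraries. It rose at P6 against P4 (log2 fold change 4.57 ± 0.58, adjusted p = 3.0e-04) and fell at P10 against P6 (-1.74 ± 0.58, adjusted p = 0.045). The fall passed narrowly, and its call ended in 9 of 18 alternatives: without P6 replicate 1 the log2 fold change was -1.95 (adjusted p = 0.12), without P6 replicate 2 it was -1.54 (adjusted p = 0.22), without P10 replicate 1 it was -1.87 (adjusted p = 0.12) and without P10 replicate 2 it was -1.62 (adjusted p = 0.23).

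Bhlhe23 (chromosome 2, 180774381 to 180776900), a basic helix-loop-helix factor needed by rod bipolar cells, stood at 0 and 0.0291 RPM at P0. It was at 10.7 and 1.87 RPM in GFP+ CD73- cells at P4 and at 5.19 and 0 RPM in CD73+ cells at P4. The P6 libraries held 68.4 and 64.2 RPM and the P10 libraries 92.5 and 84.5 RPM. Bhlhe23 rose in GFP+ CD73- cells at P4 against P0 (log2 fold change 2.52 ± 0.67, adjusted p = 0.013), a call that ended without replicate 1 of the GFP+ CD73- cells (1.50, adjusted p = 0.22). At P6 against P4 CD73+ cells it rose by 4.76 ± 0.67 on the log2 scale (adjusted p = 6.4e-04), which missed the threshold when no filter on low genes was used (adjusted p = 0.061). In the mouse annotation its 3' end lies under Gm14343, a transcript of the same strand, and reads of the pair may be split.

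Isl1 (chromosome 13, 116298270 to 116309688), a LIM-homeodomain factor of ON bipolar cells that cholinergic amacrine and ganglion cells also make, was the member with the clearest early signal. It stood at 3.62 and 1.86 RPM at P0, 17.5 and 8.62 RPM in GFP+ CD73- cells and 9.66 and 5.42 RPM in CD73+ cells at P4, 149 and 156 RPM at P6 and 232 and 210 RPM at P10. The 2 P4 groups overlapped each other, and every other step was free of overlap. Isl1 rose in GFP+ CD73- cells at P4 against P0 (log2 fold change 1.88 ± 0.33, adjusted p = 7.7e-04) and in CD73+ cells at P6 against P4 (4.21 ± 0.33, adjusted p = 6.1e-06). P10 against P6 gave 0.53 ± 0.33 and was not called.

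Secretagogin and the GABA receptor subunit both rose at P6, and a difference between their courses after P6 was not tested. Scgn (chromosome 13, 23953456 to 23991327), a calcium-binding protein of a subset of cone bipolar cells, stood at 0.679 and 0 RPM at P0, 4.29 and 0.187 RPM in GFP+ CD73- cells at P4, 2.59 and 1.06 RPM in CD73+ cells at P4, 76.5 and 68.9 RPM at P6 and 91.2 and 62.6 RPM at P10. The P6 libraries lay within the range of the P10 libraries. It rose at P6 (log2 fold change 4.76 ± 0.55, adjusted p = 1.2e-04), and P10 against P6 gave 0.06 ± 0.55 with a 95% interval of -1.11 to 1.22.

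Gabrr1 (chromosome 4, 33132556 to 33163588), a subunit of the ionotropic GABA receptor on bipolar axon terminals, was listed at 0 at P0. It stood at 1.07 and 0 RPM in GFP+ CD73- cells and at 0.471 and 0 RPM in CD73+ cells at P4, then at 26.9 and 21.1 RPM at P6 and at 66.9 and 57.5 RPM at P10. Gabrr1 rose at P6 (log2 fold change 4.36 ± 0.44, adjusted p = 4.4e-05) and again at P10 (1.34 ± 0.44, adjusted p = 0.041). The second call was narrow and ended on leaving out any 1 of the 4 libraries compared: the log2 fold change was 1.51 without P6 replicate 1 (adjusted p = 0.11), 1.18 without P6 replicate 2 (adjusted p = 0.20), 1.24 without P10 replicate 1 (adjusted p = 0.20) and 1.45 without P10 replicate 2 (adjusted p = 0.17).

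Car8 and Lrtm1 appeared later than the rest. Car8 (chromosome 4, 8141493 to 8239041), a carbonic anhydrase-related protein found in rod bipolar cells, stood at 0.453 and 0 RPM at P0, 1.43 and 0.750 RPM in GFP+ CD73- cells and 0.236 and 0 RPM in CD73+ cells at P4, 2.2 and 2.32 RPM at P6 and 22.6 and 27.6 RPM at P10. Its log2 fold change at P6 against P4 was 1.55 ± 0.46 and missed the threshold (adjusted p = 0.070), although a fit of all 26 libraries called it (adjusted p = 0.0062). It rose at P10 against P6 (2.99 ± 0.46, adjusted p = 2.5e-04).

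Lrtm1 (chromosome 14, 29018208 to 29033642), a leucine-rich repeat transmembrane protein, stood at 0.0189 and 0.0137 RPM at P0, 0.189 and 0.375 RPM in GFP+ CD73- cells and 0.471 and 0 RPM in CD73+ cells at P4, 3.29 and 0.387 RPM at P6 and 16.6 and 19.2 RPM at P10. The P6 libraries overlapped the P4 CD73+ libraries and the P10 libraries lay above both. Lrtm1 rose at P10 against P6 (log2 fold change 2.95 ± 0.55, adjusted p = 0.0014). Its 3' end is crossed by Cacna2d3 on the opposite strand, and with no strand setting known for the counting, reads of the pair cannot be told apart. The P6 means of Car8 and Lrtm1 were 9.0% and 10.3% of their P10 means, against 94.5% for Scgn, 75.0% for Bhlhe23 and 69.0% for Isl1.

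Step by step, most members were called between P4 and P6, and Trpm1, Gabrr1, Car8 and Lrtm1 were called higher at P10 against P6. All 9 members passed the filter on low values (at least 5 RPM in at least 2 libraries) and 7 of them did so only through P6 or P10; Isl1 and Bhlhe23 also reached it in P4 libraries. The counts below therefore describe the members and support nothing by themselves. In GFP+ CD73- cells at P4 against GFP+ cells at P0, 2 of 9 rose (Bhlhe23 and Isl1), against 5.24% of all 11704 genes tested. Their number was 1 without replicate 1 of the P4 GFP+ CD73- cells, and 5 without replicate 2, when Grm6 (log2 fold change 1.67), Vsx1 (2.14) and Scgn (2.03) were called as well. The median over the 6 members with no group at 0 was 0.86, against 0.06 over all genes.

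In CD73+ against GFP+ CD73- cells at P4, Grm6 stood at 0.236 and 0.265 RPM against 3.93 and 0.375 RPM. These are about 1 and 1 reads against 22 and 2. Car8 stood at 0.236 and 0 RPM against 1.43 and 0.750 RPM, about 1 and 0 reads against 8 and 4. The other members overlapped between these groups. The share of all genes without overlap was not counted, so nothing is read from this. The limma test called 0 of 9 members, while 5.86% of all genes were called in either direction. An unadjusted p under 0.05 was reached by 0 of 9 members and by 2644 of all 11704 genes tested. The intervals were wide. They ran from -2.18 to 0.06 for Grm6, from -2.65 to 0.20 for Bhlhe23 and from -1.39 to 0.01 for Isl1 on the log2 scale. Leaving out GFP+ CD73- replicate 2 gave a called fall of Grm6 (-1.98, adjusted p = 0.029), and leaving out CD73+ replicate 1 gave a called fall of Bhlhe23 (-2.54, adjusted p = 0.018). In both P4 groups 7 of the 9 members were higher in replicate 1 than in replicate 2, with summed levels of 42.5 and 12.6 RPM in GFP+ CD73- cells and 21.4 and 6.77 RPM in CD73+ cells. Markers of retinal progenitors ran the other way there, with a summed level of 246 RPM in replicate 1 and 477 RPM in replicate 2 of the GFP+ CD73- cells, and of 390 and 715 RPM in the CD73+ cells. The part of this difference in the members' levels was not tested.

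In CD73+ cells at P6 against P4, both gated on CD73 alone, 7 of 9 members rose, against 1.56% of all genes. Of the 182 genes called higher at this step, Grm6 ranked 1 by log2 fold change, Bhlhe23 and Scgn ranked 4 and 5, and Vsx1, Gabrr1 and Isl1 ranked 7, 8 and 9; Trpm1 is given no rank because its P4 libraries were at 0. The members were chosen with this rank known, so it is a description. The median over the 8 members with no group at 0 was 4.46, against 0.00 over all genes. All 7 were called whichever of the 10 libraries was left out. The whole number of called genes was 316, and was 115 without P6 replicate 2, 139 without P6 replicate 1 and 143 without P4 CD73+ replicate 2.

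At P10 against P6, 4 of 9 members rose (Trpm1, Gabrr1, Car8 and Lrtm1), against 3.33% of all genes, and 1 fell (Vsx1), against 7.62%. All genes together had a median of -0.13 at this step, which became -0.00 under median-of-ratios scaling; that scaling turned 390 higher and 892 lower genes into 495 and 704. The members' median was 0.73. Grm6, Bhlhe23, Isl1 and Scgn were not called. Without either P10 library 1 member was called, Trpm1: Car8 and Lrtm1 then no longer passed the filter, and Gabrr1 and Vsx1 were tested and missed the threshold. Without either P6 library 3 were called. From end to end, in CD73+ cells at P10 against GFP+ cells at P0, 9 of 9 members rose with adjusted p-values up to 4.6e-05, against 15.8% of all genes. Age and gate both differ in that comparison and cannot be told apart.

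**Figure D2:**
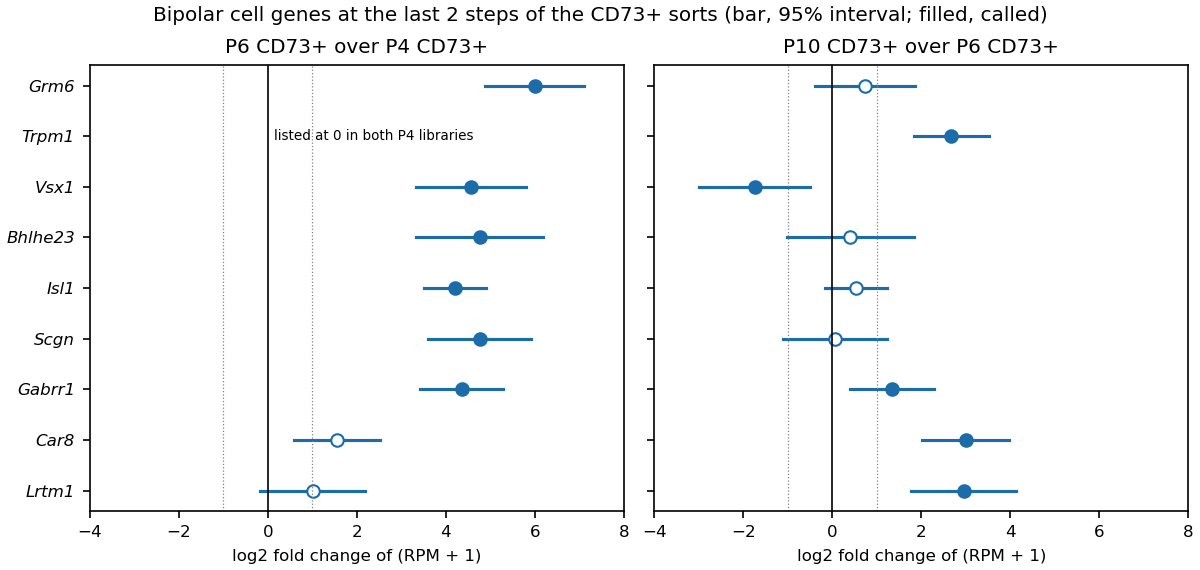
Log2 fold change of (RPM + 1) with its 95% interval (horizontal axis) for each member (vertical axis), P6 over P4 on the left and P10 over P6 on the right, in CD73+ cells; filled points were called and dotted lines mark the fold threshold. The members from Grm6 to Gabrr1 lie between 4.21 and 6.00 on the left apart from Trpm1, whose P4 libraries are at 0, and only Vsx1 lies below 0 on the right.

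A further 3 lists of bipolar genes were followed in the same fits. Of the mGluR6 cascade partners, 8 of 10 passed the filter. The 10 partners already summed to 735 and 769 RPM at P0, where the members summed to 5.0 and 4.47 RPM. In each P0 library 5 of the 10 reached 5 RPM and 1 was at 0, so the sum does not describe every partner. At P6 against P4, 1 of the 8 rose: Gpr179, the orphan receptor that anchors the regulators of Go signalling to the complex, at 31.1 and 39.9 RPM against 0.471 and 2.38 RPM (log2 fold change 4.02 ± 0.49, adjusted p = 2.2e-04). Gnao1, the Go alpha subunit itself, was already at 131 and 108 RPM in the P4 CD73+ libraries and at 203 and 197 RPM at P6, a log2 fold change of 0.75 ± 0.15 that fell short of the fold threshold. At P10 against P6, 4 of the 8 rose: Gng13 (2.44 ± 0.44) and Gnb5 (1.46 ± 0.15), which are G protein gamma and beta subunits, Rgs7 (1.81 ± 0.54), a regulator that speeds the shut-off of Go, and Lrit3 (2.03 ± 0.48), which helps place TRPM1 at the dendrite tips. The number at P10 was 2 without P6 replicate 2 or without P10 replicate 2, and the number at P6 was 3 without either P0 library.

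The 11 transcription factors of bipolar cells split. At P6 against P4, 4 of 11 rose and 0 fell, among them Irx6 (2.09 ± 0.56), Fezf2 (2.66 ± 0.30) and Prdm8 (1.27 ± 0.23), a relative of Prdm1 needed for rod bipolar cells. At P10 against P6, 1 rose, Sebox (1.92 ± 0.51), and 4 fell, among them Irx5 (-1.37 ± 0.43), Irx6 (-2.12 ± 0.56) and Fezf2 (-1.98 ± 0.30). Fezf2 held 33.3 and 32.5 RPM at P6, against 3.06 and 6.08 RPM in CD73+ cells at P4, and 8.57 and 6.73 RPM at P10. Otx2, which photoreceptors and bipolar cells share, was not called at either step (-0.24 ± 0.12 and -0.90 ± 0.12). Under both scalings 3 rather than 4 fell at P10, and the number that rose at P6 was 2 without P6 replicate 2 or without P4 CD73+ replicate 1. Without P6 replicate 1, 2 fell at P10 and 1 rose. Without P6 replicate 2 or P10 replicate 1, 3 fell and 0 rose, and without P10 replicate 2, 2 fell and 0 rose.

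Of the 14 other bipolar markers 11 passed the filter. At P6 against P4, 6 rose (Pcp2, Pcp4, Cabp5, Grik1, Gsg1 and Ablim1) and 1 fell (Syt2). Of all 11704 genes tested, 182 rose and 134 fell at this step. Pcp4, a calmodulin-binding peptide, held 189 and 161 RPM at P6, against 15.8 and 5.55 RPM at P4 (log2 fold change 4.06 ± 0.44, adjusted p = 6.6e-05), and Gsg1 held 64.0 and 69.3 RPM against 7.78 and 3.70 RPM (3.40 ± 0.46). Prkca, the kinase used to stain rod bipolar cells, was at 104 and 96.0 RPM at P6 and 64.3 and 47.9 RPM at P4 and was not called (0.83 ± 0.17), then rose at P10 (1.12 ± 0.17, adjusted p = 3.2e-04) to 219 and 216 RPM. At P10 against P6, 6 rose and 1 fell, the last being Tacr3 (-1.84 ± 0.39), the neurokinin 3 receptor of OFF cone bipolar cells. The 6 at P6 became 3 without P6 replicate 1, without P6 replicate 2 or without P4 CD73+ replicate 2, and the 6 at P10 became 4 without either P10 library.

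Rod and cone markers of the labelled photoreceptor sorts were present in all 10 libraries. The summed level of 8 rod genes, including Nrl, was 1072 to 1132 RPM at P0, 4086 to 4737 RPM in GFP+ CD73- cells at P4, 8506 to 10549 RPM in CD73+ cells at P4, 12288 to 13933 RPM at P6 and 32824 to 38257 RPM at P10, and none of the 8 was at 0. For 7 cone genes the sum was 841 RPM at P0, 2124 to 2349 RPM in GFP+ CD73- cells at P4, 2337 to 2435 RPM in CD73+ cells at P4, 2200 to 2481 RPM at P6 and 943 to 960.3 RPM at P10. At P6 against P4, 1 of the 7 rose, and at P10 against P6, 2 rose and 1 fell. The 9 bipolar members summed to 5.0 and 4.47 RPM at P0, then 455 and 482 RPM at P6 and 847 and 747 RPM at P10. At P6 against P4, 2 of 8 rod genes rose, and at P10 against P6, 4 of 8. In bulk RNA, more bipolar cells within the sorted cells and more bipolar RNA per sorted cell cannot be told apart.

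Markers of the other retinal cells were followed in the same fits. The summed level of 8 amacrine genes was 183 to 211 RPM at P6, against 231 to 237 RPM in CD73+ cells at P4, and 78.1 to 99.3 RPM at P10, most of it Slc6a9, a glycine transporter that glia also make; 0 of the 6 tested rose at P6 and 1 fell (Ptf1a), and 3 fell at P10 (Tfap2b, Gad2 and Slc32a1). For 5 horizontal cell genes the sums were 61.1 to 69.3 RPM at P6, against 37.9 to 47.3 RPM in CD73+ cells at P4, and 51.9 to 55.9 RPM at P10. Of the 3 tested, 1 rose at P6 and 2 fell at P10. The one that rose was Prox1, which bipolar and amacrine cells also make (1.28 on the log2 scale). Ganglion cell genes summed to at most 21.9 RPM in any retinal library and 0 of the 2 tested were called at P6 or P10. Muller glia genes summed to 614 to 683 RPM at P6, against 514 to 568 RPM in CD73+ cells at P4, with 0 of 6 called, and to 296 to 399 RPM at P10, where 3 of 6 fell. Of 7 progenitor genes 2 fell at P6, where 134 of all 11704 genes tested fell. At P10, where 7.62% of all genes fell, 6 of the 7 did so, to sums of 30.9 to 34.3 RPM. Pigment cell genes summed to at most 25.4 RPM, with 3 or 4 of 7 at 0 in each library. The part of these cell types in the members' levels was not tested.

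**Figure D3:**
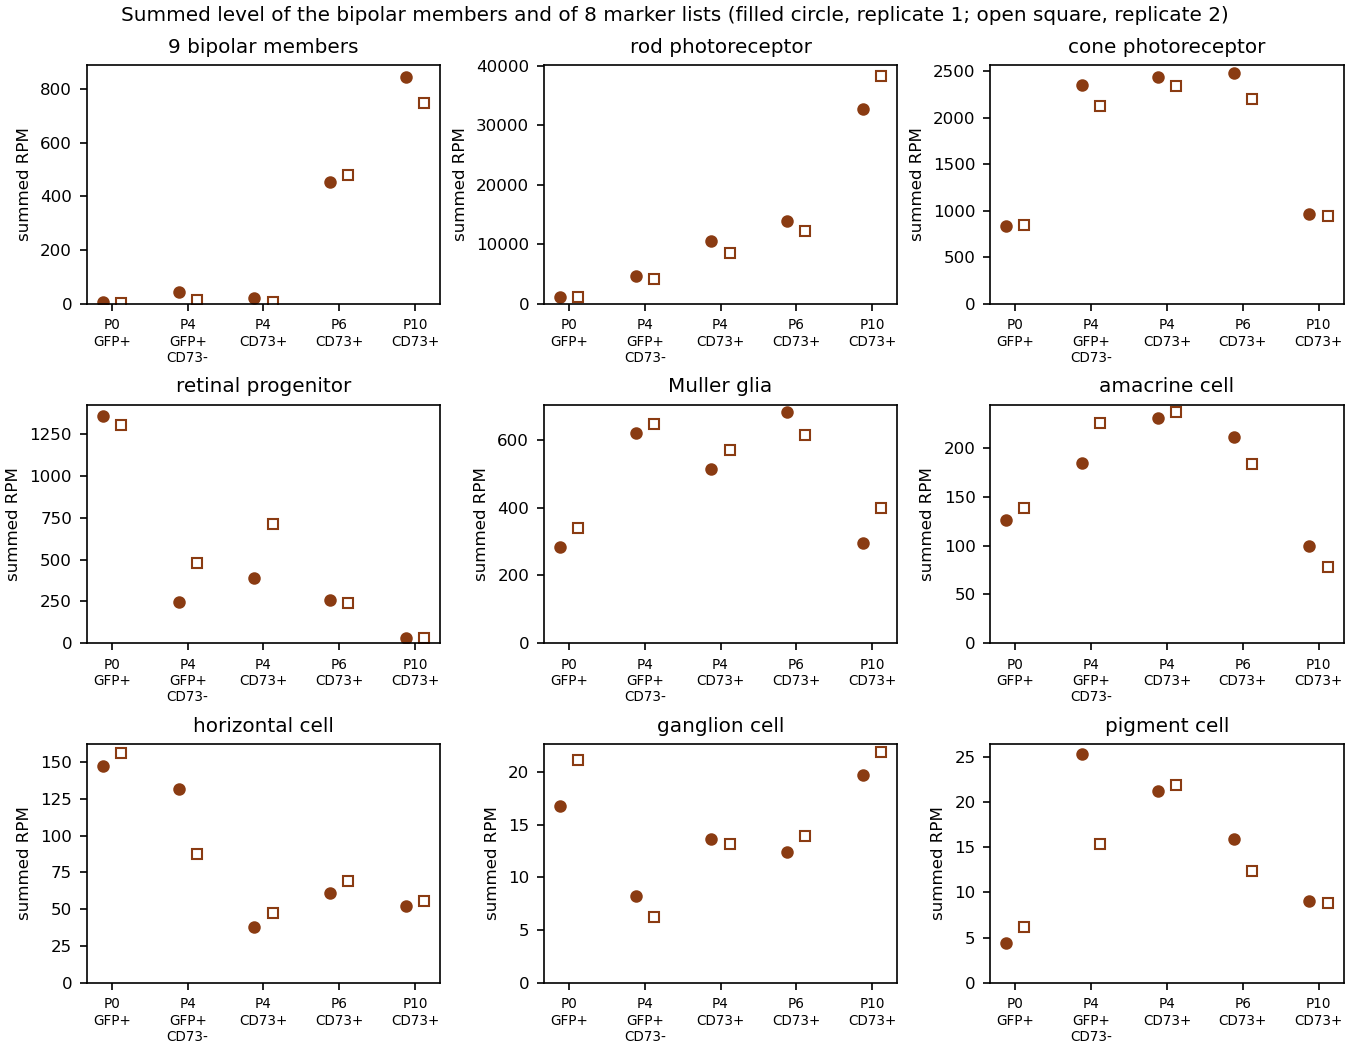
Summed RPM (vertical axis, each from 0) of the 9 bipolar members and of 8 marker lists in each retinal library; groups run along the horizontal axis and points are single libraries. The bipolar panel climbs at P6 and P10, the rod panel climbs at every group to between 32824 and 38257 RPM, and the amacrine and progenitor panels are lowest at P10.

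Nt5e, the gene behind the CD73 gate, did not move with the members at the P4 to P6 step. It held 258 and 269 RPM in CD73+ cells at P6, against 323 and 225 RPM at P4 (log2 fold change -0.03 ± 0.27), and 396 and 396 RPM at P10. In GFP+ CD73- cells at P4, sorted as lacking the protein, its RNA was at 145 and 89.2 RPM.

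The genes whose course over the 10 retinal libraries was most like that of a member were found by the Pearson correlation of log2(RPM + 1) among 11703 genes, a description in which all genes share the libraries and their depth. For Grm6 they were Trnp1 (r = 0.986), Gabrr1 (0.983) and Lin7a (0.979). For Scgn they were Trnp1 (0.992), Isl1 (0.983) and Kif1a (0.978). Trnp1 held 109 and 134 RPM at P6, against 3.77 and 1.59 RPM in CD73+ cells at P4, and 138 and 141 RPM at P10. Trpm1 stood closest to Slc4a10 (0.990), Prkce (0.987) and Lin7a (0.98), which, like it, were higher at P10 than at P6. For Vsx1 they were Nacad (0.979), A730046J19Rik (0.979) and Grik1 (0.969), a kainate receptor gene of OFF bipolar cells. Among the members, Grm6 was less like Car8 (0.841) and Lrtm1 (0.792) than like Isl1 (0.961).

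Grm6 was the one member above 5 RPM in any B lineage library. It stood at 2.02 and 3.61 RPM in B cells, 16.499 and 28.7 RPM in blasts, 0.611 and 0.899 RPM in prePB and 0 and 0.703 RPM in PB. The blast libraries lay above all others and the prePB and PB libraries overlapped. Grm6 passed the filter of this lineage only through the blast libraries, where it is high, and it no longer passed with either blast library left out. With no filter the adjusted p was 0.0070 for blasts against B cells and 0.0096 for prePB against blasts. With the filter, Grm6 rose in blasts against B cells (log2 fold change 2.61 ± 0.44, adjusted p = 2.1e-04), where 12.3% of the 9871 genes tested rose. In prePB against blasts it fell by 3.71 ± 0.44 on the log2 scale (adjusted p = 4.5e-05), where 5.83% of genes fell. PB against prePB gave -0.42 ± 0.44 and was not called, where 13.0% of genes were called in either direction. PB against B cells gave a called fall of -1.52 ± 0.44 (adjusted p = 0.0075), where 40.5% of genes fell. That last call ended with quantile normalization (-0.92, adjusted p = 0.11), without B cell replicate 2 (-1.21, adjusted p = 0.12) and without PB replicate 1 (-1.13, adjusted p = 0.075).

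The scale of the deposited values bears on the B lineage, where the median of all genes was -0.77 in PB against B cells, -0.39 in PB against prePB, -0.24 in prePB against blasts and -0.18 in blasts against B cells. Median-of-ratios scaling brought these to -0.02, 0.01, -0.04 and -0.04. With it, 711 higher and 4000 lower genes in PB against B cells became 1664 and 1860, and 437 higher and 575 lower genes in prePB against blasts became 565 and 331. In PB against prePB, 124 higher and 1157 lower genes became 388 and 415. For blasts against B cells 1218 higher and 2149 lower genes became 1663 and 1662 with quantile normalization. Grm6 kept its direction in all of them, at 2.66 in blasts against B cells, -3.50 in prePB against blasts and -1.16 in PB against B cells with median-of-ratios scaling. As deposited, the complete gene lines summed to 915695.1 and 918554.1 RPM in B cells and 960060.5 and 954939.0 RPM in blasts. In prePB they summed to 864611.4 and 827448.3 RPM, and in PB to 688942.5 and 650798.7 RPM. The part of these sums in the falls of PB was not tested.

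Prdm1 moved against Grm6 across these stages. It stood at 10.5 and 9.15 RPM in B cells, 3.30 and 2.31 RPM in blasts, 135 and 155 RPM in prePB and 181 and 242 RPM in PB. It fell in blasts against B cells (-1.52 ± 0.24) and rose in prePB against blasts (5.27 ± 0.24). Blasts were sorted as GFP- and prePB and PB as GFP+ for the BLIMP1 reporter, so that rise was set by the gate. Trpm1, Scgn and Gabrr1 were listed at 0 in all 8 libraries of this lineage, so reads assigned to the receptor gene were seen here without its channel. An antisense gene, Gm12660, overlaps Grm6 away from its 3' end, and the strand setting of the counting is not known. The genes most like Grm6 over the 8 libraries were Usp22 (r = 0.997), Tagap (0.986) and Sssca1 (0.985).

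**Figure D4:**
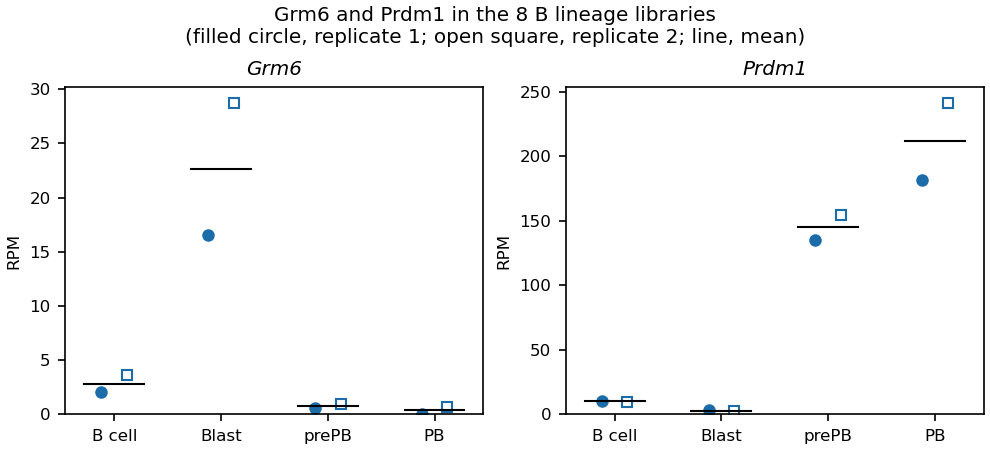
Level in RPM (vertical axes from 0) of Grm6 and Prdm1 in B cells, blasts, prePB and PB (horizontal axis); points are single libraries and lines are means of 2. Grm6 peaks at 16.499 and 28.7 RPM in blasts, where Prdm1 is lowest at 3.30 and 2.31 RPM. Blasts were gated as GFP- and prePB and PB as GFP+ for the BLIMP1 reporter.

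There were 3 members present in the intestine as well, each with its own course. Car8 stood at 97.7 and 114 RPM at E16.5, 104 and 134 RPM at P3 and 77.5 and 83.8 RPM at P14, levels above those of every retinal library. It was not called at P3 against E16.5 (log2 fold change 0.17 ± 0.18) or at P14 against P3 (-0.55 ± 0.18, adjusted p = 0.054). Scgn stood at 3.08 and 0.309 RPM at E16.5, 15.7 and 16.2 RPM at P3 and 23.2 and 28.0 RPM at P14. Isl1 stood at 1.67 and 0.618 RPM at E16.5, 8.97 and 6.73 RPM at P3 and 7.63 and 18.2 RPM at P14. Both rose at P3 against E16.5, Scgn by 2.87 ± 0.42 (adjusted p = 9.1e-06) and Isl1 by 2.08 ± 0.46 on the log2 scale (adjusted p = 9.6e-04), so that 2 of the 3 members tested rose, where 12.6% of all genes did. Scgn and Isl1 passed the filter only through P3 and P14, so nothing is read from that count, and the other 6 members were not tested. The median of all genes was 0.11 at that step and 0.02 with quantile normalization, which turned 1321 higher and 859 lower genes into 1047 and 976.

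Neither was called at P14 against P3, where limma called 0 of 3 members, and 4.40% of all genes in either direction. An unadjusted p under 0.05 was reached by 1 of 3 members (Car8) and by 2206 of all 10481 genes tested. Enteroendocrine cells, the hormone-making cells of the epithelium that are known to use Isl1 and Scgn, had 8 of 8 marker genes higher at P3 against E16.5, with sums of 5075 to 7563 RPM at P3, against 63.6 to 98.5 RPM at E16.5. At P14 against P3, 5 of 8 fell, to sums of 1880 to 3379 RPM. The part of these cells in the members' levels was not tested.

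**Figure D5:**
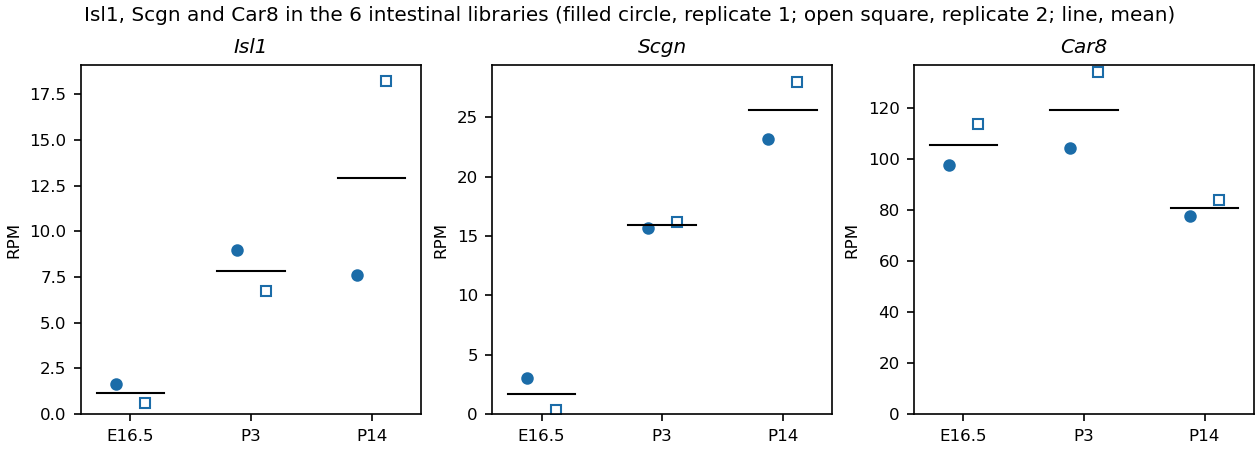
Level in RPM (vertical axes from 0) of Isl1, Scgn and Car8 in the intestinal groups, E16.5 then P3 then P14 (horizontal axis); points are single libraries and lines are means of 2. Scgn climbs to 23.2 and 28.0 RPM at P14, and Car8 stays between 77.5 and 134 RPM.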

How the data were processed

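The members and gene lists were chosen with earlier results of these data known. The authors deposited 1 table of expression signal, named as RPM per the file headers. The tools cutadapt 1.11, TopHat 1.4.1, Bowtie 1.0.1 and Cufflinks 2.2.0 and the build mm10 are named per the submitters' processing notes; their roles, and the strand setting of the counting, are not given in the sources used here. Lines with values missing or moved against the header (1164, with 92 spike-ins) were left out. Low values (under 20.5 reads) came out whole to within 0.02 reads for 73.2 to 86.7% of values in a library, so they were not treated as counts. Library depth, read from the value of 1 read, was about 1716500 to 6040000 reads.

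A gene was tested where 2 or more libraries of its lineage reached 5 RPM, as log2(RPM + 1) with limma 3.58.1 (trend fit, R 4.3.3), 1 fit per lineage, group means only, two-sided, with Benjamini-Hochberg adjustment over all genes tested. A fold change on this scale understates changes of low genes. The fitting code was tested on simulated data. Named genes were the 9 members, Prdm1, Nt5e and the 3 genes most like Grm6, Trpm1, Vsx1 and Scgn; other bipolar genes named are those of the lists that were called, plus Gnao1, Otx2 and Prkca as examples, and marker genes of other cell types that were called, chosen after their values were seen. Tables and figures used Python 3.11.15, NumPy 2.4.6, pandas 2.3.3 and matplotlib 3.10.9. Alternatives were other pseudocounts, filters and scalings, the replicate number as a block, 1 fit of all libraries, and each library left out. Values of some single genes of the lists are not reported here.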

Additional observations from a re-analysis of the deposited data

Results flagged for a closer look

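Isl1 was detected in day 2 primordial germ cell-like cells, a group that no comparison used. Its mean was 16.2 RPM (16.9 and 15.6 RPM), above the level that 3 reads give in these libraries, 1.75 and 1.1 RPM. Scgn, Gabrr1 and Lrtm1 were listed at 0 there, and the other members stood at 1.48 RPM or less.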

How the results depend on the processing

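With 2 libraries per group, precision is limited, and the value of 1 read limits what low members can show before P6. The 7 members that rose at P6 against P4 were called in all leave-one-out fits; without a filter 6 were called, and 8 in a fit of all 26 libraries. Without a filter, members called numbered 3 rather than 5 at P10 against P6 and 1 rather than 2 at P4 GFP+ CD73- against P0, and genes called numbered 111 at P6 against P4, 664 in prePB against blasts and 143 at P14 against P3. A pseudocount of 0.5 gave 3 members at P10 against P6. Genes called in PB against prePB numbered 803 with median-of-ratios scaling and 729 with quantile normalization, against 1281 as deposited.

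Leaving out 1 library at a time gave 809 to 1289 genes and 1 to 5 members at P4 GFP+ CD73- against P0, 443 to 713 genes and 0 to 1 members at P4 CD73+ against P4 GFP+ CD73-, 115 to 362 genes at P6 against P4, 776 to 1296 genes (776 without P10 replicate 2) and 1 to 5 members at P10 against P6, and 269 to 461 genes at P14 against P3. The only changes of sign were in values that were not called, and their leave-one-out log2 ranges follow. At P4 GFP+ CD73- against P0 they were -0.17 to 1.67 for Grm6 and -0.13 to 2.03 for Scgn. At P4 CD73+ against P4 GFP+ CD73- they were -1.28 to 0.52 for Vsx1, -2.54 to 0.0918 for Bhlhe23, -0.77 to 0.28 for Gabrr1, -0.96 to 1.20 for Scgn and -0.35 to 0.20 for Lrtm1. They were -0.21 to 0.32 for Scgn at P10 against P6, -0.0123 to 0.34 for Car8 at P3 against E16.5 and -0.0248 to 1.13 for Isl1 at P14 against P3. The cause of these shifts was not tested.

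The deviations of same-numbered libraries correlated above 0.1 in 1 of 10 retinal group pairs (0.284 between the P4 groups), 2 of 6 in the B lineage (0.196 for blasts with prePB, 0.127 for prePB with PB) and 0 of 3 in the intestine. The labels tie no numbers together and not every pair passed 0.1, so the numbers were not used as pairs. With the replicate number as a block, genes called numbered 1314 at P4 GFP+ CD73- against P0, 335 at P6 against P4 and 1292 at P10 against P6, and no member count changed. The counts of the 3 bipolar lists under other settings were chosen after seeing the data.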

Other observations

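Other genes called higher in CD73+ cells at P6 against P4 lay between and beside the members in the order of fold, and were chosen here after their values were seen. Car10, a carbonic anhydrase-related gene, ranked 11 of 182, at a mean of 43.9 ± 5.19 RPM at P6 against 1.73 ± 0.55 RPM at P4 (SD, n = 2 each; log2 fold change 4.05 ± 0.36, adjusted p = 1.1e-05 from limma). Trnp1, a nuclear protein gene, ranked 2, at 121 ± 17.8 RPM against 2.68 ± 1.54 RPM (5.11 ± 0.48, adjusted p = 1.7e-05). Gm3893 ranked 3 with a wide spread at P6, at 55.8 ± 32.6 RPM against 0.688 ± 0.973 RPM (5.07 ± 0.82, adjusted p = 0.0020).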
